A study of Mus musculus with 11 samples.

Results

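The 37 genes described here encode enzymes of cholesterol and fatty acid synthesis, the factors that control their transcription, and the liver X receptor (LXR) arm that moves cholesterol out of cells. They were taken by gene symbol from a deposited table of RNA levels with 23071 gene identifiers, and all 37 were found there. The table holds RNA levels of 11 mouse libraries, all from C57BL/6 mice. The 5 leukemia libraries were leukemic B cells from lymph nodes of 5 single mice, of the genotype Pax5+/- x Ebf1+/-, frozen as cell suspensions. The 3 Ebf1+/- libraries were progenitor B cells of bone marrow, enriched on columns and pooled from 3, 6 and 7 mice. The 3 wild-type libraries were progenitor B cells enriched in the same way, from pools of 3, 7 and 6 mice. Pax5 and Ebf1 are transcription factors that set up and keep B cell identity. The labels used here give no ages, and cells of Pax5+/- x Ebf1+/- mice before leukemia were not analysed here. Tissue, leukemic state, genotype, purification and pooling differed together between the leukemias and both marrow groups, so their parts in any difference below cannot be told apart. The aligner named in the labels differed between the Ebf1+/- libraries and all the others, and it cannot be told apart from that genotype either. The closest libraries across all genes were Ebf1+/- 2 and wild-type 2 (correlation 0.989), which carry different genotype labels. No libraries agreed within sampling noise.

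Cells build cholesterol from acetyl-CoA through mevalonate, isoprenoid diphosphates, squalene and a series of sterols. Sterol regulatory element-binding proteins (SREBPs) switch on the enzymes of this route, and those of fatty acid synthesis, when the membranes of the endoplasmic reticulum run low in sterol. Scap carries the SREBP precursors to the Golgi for cleavage, and the Insig proteins hold Scap back when sterol is plentiful. LXRs respond to oxidized sterols and switch on cholesterol export. Lymphocytes that divide draw on both synthesis routes for new membrane.

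Promoter sequences come first because SREBPs act at a known short motif, often beside the factor NF-Y. Of the 37 genes, 30 had a promoter window in the RefSeq table of build GRCm38.p6, which runs from 250 bases before a start to 50 after it, and these genes had 40 windows in all. Sqle, Fdft1, Fdps, Fads1, Abcg1, Scd1 and Scd2 had none. On either strand, the SREBP motif TCACNCCAC was found in 1 of the 30 genes, Hmgcs1 (3.3%, against 1.44% of the 27025 genes in the table). The NF-Y motif CCAAT was found in 22 of the 30 genes (73.3%, against 41.06%). The E-box CACGTG was found in 7 (23.3%, against 8.09%). No match of a factor overlapped a match of another factor. The stretches printed here are the 150 bases before the start of Mvd and Sc5d, both called higher in leukemia, of Ebp, which lay just outside that call, and of Hmgcs1, the holder of the SREBP motif, which was not called. They run 5′ to 3′ on the strand of the gene, share no base with an annotated exon, and show the matches in capitals. Mvd is at chr8:122443423-122443572 (minus strand), Sc5d at chr9:42264301-42264450 (minus strand), Ebp at chrX:8193513-8193662 (minus strand) and Hmgcs1 at chr13:119690201-119690350 (plus strand).
Mvd: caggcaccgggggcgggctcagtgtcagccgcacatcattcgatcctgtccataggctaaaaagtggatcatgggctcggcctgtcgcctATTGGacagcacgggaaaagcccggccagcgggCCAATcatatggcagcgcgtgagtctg
Sc5d: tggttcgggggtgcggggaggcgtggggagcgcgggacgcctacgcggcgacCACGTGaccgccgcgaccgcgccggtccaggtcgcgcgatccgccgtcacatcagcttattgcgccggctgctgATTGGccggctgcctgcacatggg
Ebp: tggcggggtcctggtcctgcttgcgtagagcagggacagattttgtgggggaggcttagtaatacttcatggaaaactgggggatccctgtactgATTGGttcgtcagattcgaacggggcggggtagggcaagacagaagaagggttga
Hmgcs1: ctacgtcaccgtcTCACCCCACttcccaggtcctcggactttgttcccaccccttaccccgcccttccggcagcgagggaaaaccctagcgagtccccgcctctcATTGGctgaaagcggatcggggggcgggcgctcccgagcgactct
ATTGG is CCAAT on the other strand. In Mvd the matches begin 60 and 27 bases before the start, in Sc5d the E-box begins 98 and the NF-Y match 24 bases before it, and in Hmgcs1 the SREBP match begins 137 bases before it. The genes called higher in leukemia against wild type, as described below, did not stand apart by these letters. Of the 14 called higher, 11 had a window and 8 of these held CCAAT, while 16 of the 19 tested genes without a call had a window and 14 of these held it. These counts describe letters in the windows and say nothing of binding.

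RNA levels are given as FPKM, fragments scaled for transcript length and for library size, so levels of different genes can be set beside each other. Library totals recovered from the values were 8506680 to 14327558 reads in leukemia, 11214136 to 15313920 reads in Ebf1+/- and 11092970 to 14494216 reads in wild type. Differences are on the log2(FPKM + 1) scale, where differences of weakly expressed genes come out too small. They were tested with limma over all genes that averaged at least 1 FPKM, with a two-sided p-value adjusted by Benjamini and Hochberg and a call at an adjusted p under 0.05. All 14 markers of progenitor B cells averaged at least 1 FPKM in every group, and in leukemia against wild type 3 of them were called higher and 4 lower, with a median difference of -0.32. Markers of other marrow cells did not spread evenly. The 14 granulocyte markers summed to 4.06 to 9.5 FPKM in leukemia, to 2734 to 10716 FPKM in Ebf1+/- and to 630 to 3433 FPKM in wild type, with Cebpe at 0 in all 5 leukemias. The 8 platelet markers summed to 0.247 to 1.35 FPKM in leukemia, with Gp6 at 0 in all 5, to 143 to 4068 FPKM in Ebf1+/- and to 77.0 to 452 FPKM in wild type. In leukemia against wild type, all 14 granulocyte and all 8 platelet markers were called lower, as were 3 of 5 tested monocyte, 6 of 8 erythroid, 2 of 4 dendritic and 3 of 3 stromal markers, while 2 of 9 T and NK cell markers were called higher (22.2%, with a median difference of -0.49). Of all genes tested, 20.7% were called higher and 24.1% lower. In such bulk RNA, fewer cells of a type and less RNA per cell cannot be told apart, and the part of these other cells in the differences of the lipid genes was not tested. The leukemias were separate mice and the marrow libraries separate pools, so p-values rest on the spread between these mice and pools. Each fit took the same spread for both groups of a gene, adjusted towards a trend over all genes. Since pools average several mice, the spread between single mice was not measured in marrow.

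Against wild-type progenitors, the leukemias had more RNA for a subset of the cholesterol route, for its regulators Srebf2 and Scap, and for the fatty acid enzymes Fasn and Acaca, and less for Nr1h2 and Abca1 of the LXR arm and for the desaturase Scd1. Of the 36 genes tested, 14 were called higher (38.9%, against 20.7% of the 10968 genes tested) and 3 lower (8.33%, against 24.1%). The remaining 19 were not called. In 12 of the 36 every leukemia lay above every wild-type library (21.2% of all genes tested), and in 1, Nr1h2, every leukemia lay below (25.1%). The median difference of the 36 genes was 0.23, against -0.04 over all genes tested, and 23 of the 36 differences were above 0, against 47.4% of all genes tested. Without wild-type 1 the median of the 36 genes was 0.151. Nr1h3 averaged less than 1 FPKM and was not tested.

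**Figure D1:**
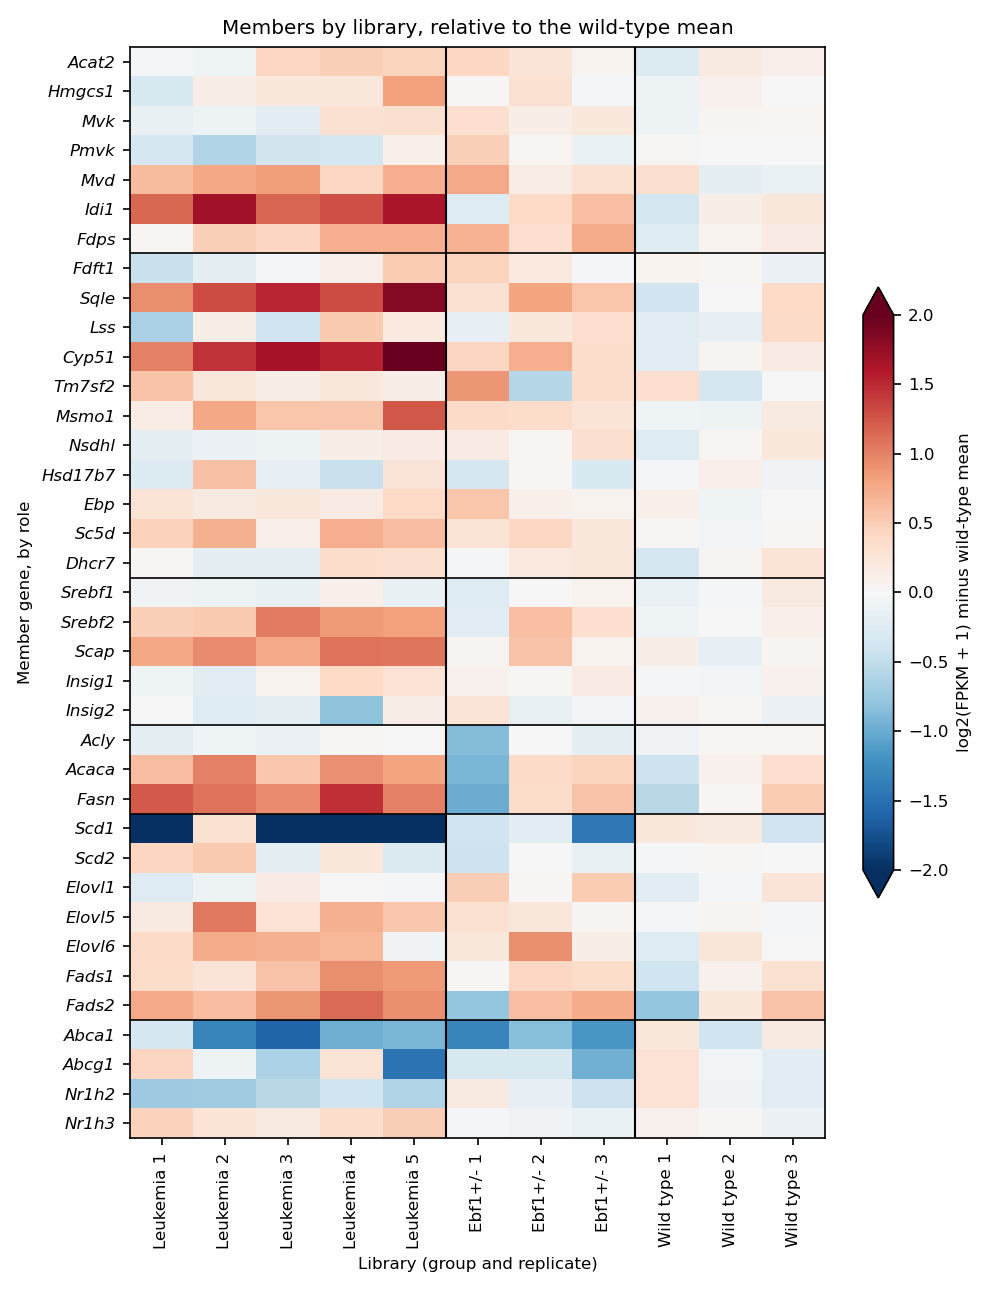
The 37 genes (rows, grouped by role with horizontal lines) in the 11 libraries (columns), coloured by log2(FPKM + 1) minus the wild-type mean of the gene; colours stop at -2 and 2. Idi1, Sqle and Cyp51 are red in all 5 leukemias, while Scd1 is blue in 4 of them and Abca1 is blue in the leukemias and in the Ebf1+/- libraries.

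**Figure D2:**
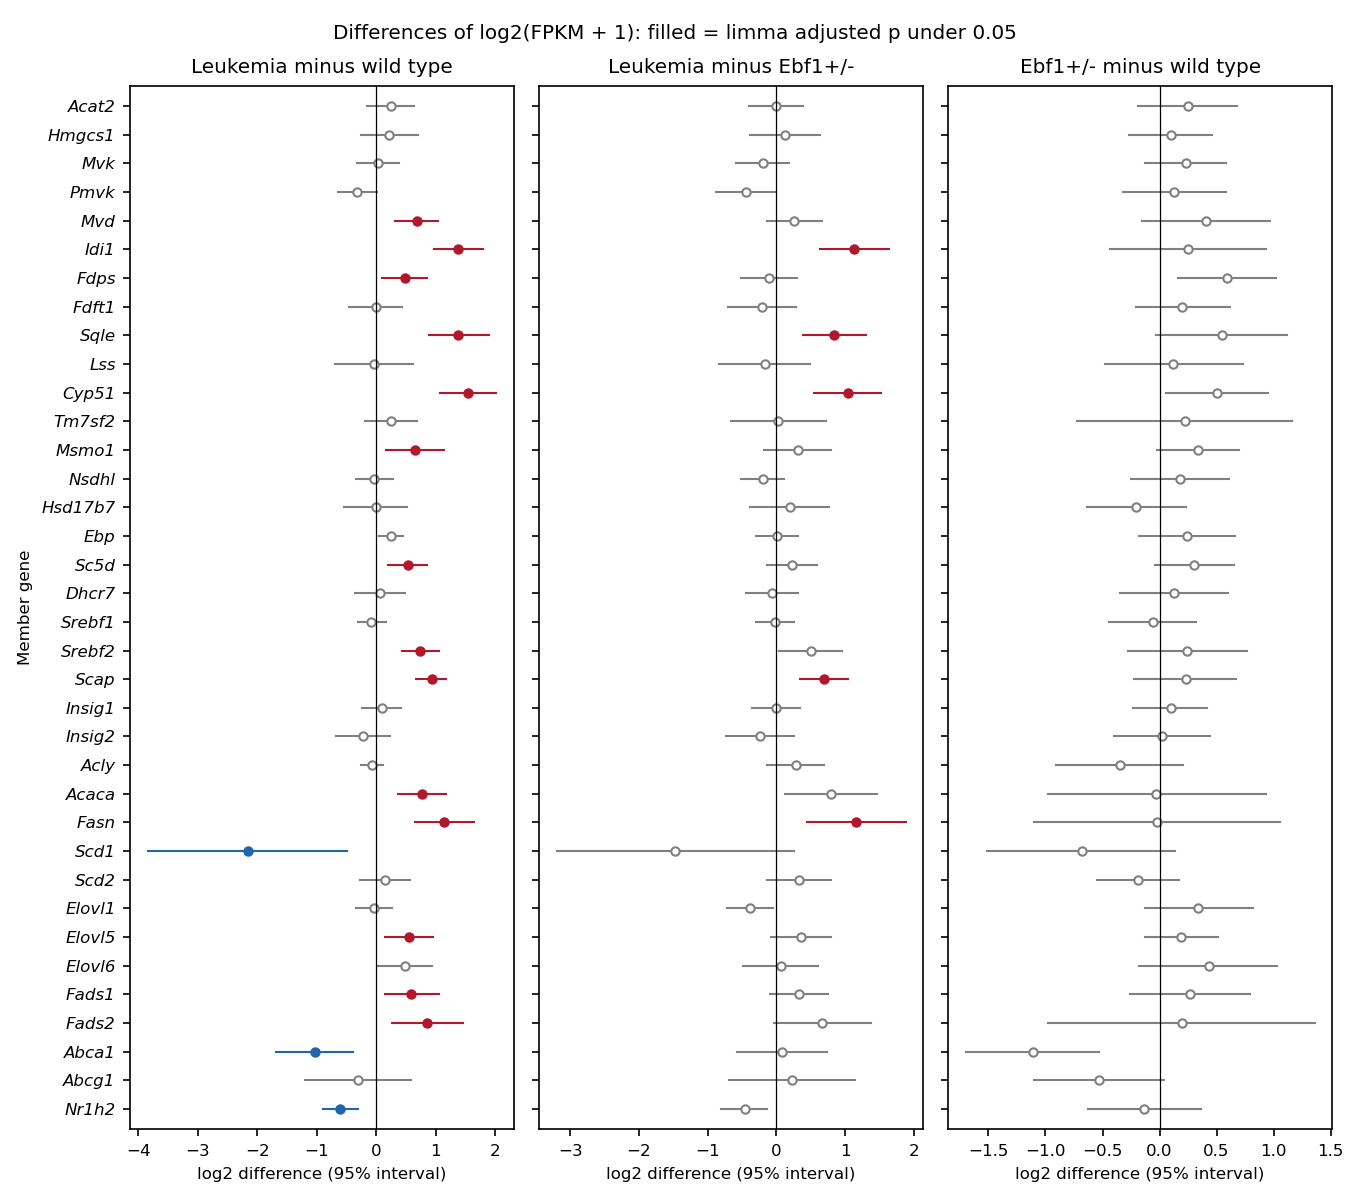
Difference of log2(FPKM + 1) (points) with its 95% interval (lines) for the 36 tested genes in the 3 comparisons; filled points passed limma at an adjusted p under 0.05, red higher and blue lower. Leukemia against wild type has 17 filled points, leukemia against Ebf1+/- has 5, and Ebf1+/- against wild type has 0; the horizontal scales differ between panels.

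In the mevalonate and isoprenoid steps, 3 of 7 genes were called higher (42.9%, against 20.7% of all genes tested) and 0 lower (against 24.1%). Idi1, the isomerase that makes the active isoprene unit (chromosome 13, 8885501 to 8892451, plus strand, GRCm38), had 10.2, 15.1, 10.4, 11.4 and 14.8 FPKM in leukemias 1 to 5, against 2.96, 4.5 and 4.93 FPKM in wild-type 1 to 3. Ebf1+/- pools 1 to 3 had 3.21, 5.69 and 6.71 FPKM. All 5 leukemias lay above all 6 marrow pools. The difference from wild type was 1.38 (SE 0.18, adjusted p = 0.000483 by limma), with means of 12.4 ± 2.40 FPKM in leukemia and 4.13 ± 1.04 FPKM in wild type (SD, n = 5 and 3). Mvd, the decarboxylase that makes isopentenyl diphosphate, had 5.72 to 8.0 FPKM with a median of 7.38 FPKM in leukemia, against 5.32, 3.44 and 3.63 FPKM in wild type, a difference of 0.68 (SE 0.16, adjusted p = 0.00733). Its groups did not overlap, although the lowest leukemia lay only just above the highest wild-type pool. Fdps, which joins isoprene units into farnesyl diphosphate, averaged 32.7 ± 6.24 FPKM in leukemia and 23.0 ± 3.37 FPKM in wild type (0.48, SE 0.17, adjusted p = 0.0467). Leukemia 1, at 23.4 FPKM, lay within the wild-type range of Fdps. Its call was lost without leukemia 2, 3, 4 or 5 (adjusted p = 0.0747, 0.0707, 0.0852 and 0.0864) and without wild-type 1, 2 or 3 (adjusted p = 0.169, 0.0881 and 0.0575).

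The enzymes at the head of the route were not called. Hmgcs1, which makes HMG-CoA, averaged 19.0 ± 5.83 FPKM in leukemia and 15.7 ± 1.06 FPKM in wild type, and Acat2, the cytosolic thiolase before it, 13.2 ± 2.62 FPKM in leukemia and 10.9 ± 1.92 FPKM in wild type. The mevalonate kinase Mvk differed by 0.03 (95% interval -0.33 to 0.39). Pmvk, the next kinase, was at 9.47 ± 1.98 FPKM in leukemia and 11.9 ± 0.202 FPKM in wild type (-0.32, adjusted p = 0.113) and was called lower only when leukemia 5 was left out (-0.42, adjusted p = 0.0167, against 0.218 at most over 18 alternatives).

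In the squalene and sterol steps, 4 of 11 genes were called higher (36.4%, against 20.7% of all genes tested) and 0 lower (against 24.1%). Cyp51, the lanosterol demethylase (chromosome 5, 4081145 to 4104746, minus strand), had 12.2, 16.8, 19.8, 18.1 and 26.2 FPKM in leukemias 1 to 5, against 4.62, 5.83 and 6.32 FPKM in wild-type 1 to 3. The Ebf1+/- pools had 7.86, 9.85 and 7.35 FPKM, between the other groups. Here the 3 groups did not overlap. The difference between leukemia and wild type was 1.54 (SE 0.21, adjusted p = 0.000548), the largest upward one among the 36 genes, with means of 18.6 ± 5.09 FPKM in leukemia and 5.59 ± 0.878 FPKM in wild type. Sqle, the squalene monooxygenase (chromosome 15, 59315077 to 59331192, plus strand), had 18.3, 24.0, 28.1, 24.1 and 35.2 FPKM in leukemias 1 to 5, against 6.73, 9.02 and 12.3 FPKM in wild-type 1 to 3. In Ebf1+/- it had 11.4, 16.4 and 13.8 FPKM. The lowest leukemia lay above the highest marrow pool, and the difference from wild type was 1.38 (SE 0.22, adjusted p = 0.00131).

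Sc5d, a sterol desaturase late in the route, averaged 11.4 ± 2.02 FPKM in leukemia and 7.52 ± 0.280 FPKM in wild type (0.53, SE 0.15, adjusted p = 0.0188). The groups did not overlap, and the call was lost without wild-type 2 (adjusted p = 0.0654), with adjusted p from 0.0032 to 0.116 over 18 alternatives. Msmo1, the methylsterol monooxygenase, averaged 14.1 ± 4.36 FPKM in leukemia and 8.34 ± 1.00 FPKM in wild type (0.65, SE 0.22, adjusted p = 0.0349). Leukemia 1, at 9.35 FPKM, lay within the wild-type range of Msmo1. Its call was lost without leukemia 2 or 3 (adjusted p = 0.0666 and 0.0528) or wild-type 1, 2 or 3 (adjusted p = 0.101, 0.107 and 0.0514). The sterol isomerase Ebp stood just outside the threshold at 27.0 ± 1.85 FPKM in leukemia and 22.6 ± 1.52 FPKM in wild type (0.25, SE 0.09, adjusted p = 0.0508), with no overlap of the groups. It passed in 8 of 18 alternative settings, over which its adjusted p ran from 0.00292 to 0.175.

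The other 6 genes of these steps were not called, and their differences ran from -0.04 to 0.25. Fdft1, the squalene synthase at the branch into sterols, averaged 8.33 ± 2.39 FPKM in leukemia and 8.17 ± 0.606 FPKM in wild type. Lss, which closes squalene epoxide into lanosterol, averaged 1.90 ± 0.916 FPKM in leukemia and 1.92 ± 0.709 FPKM in wild type. The dehydrogenase Nsdhl averaged 7.57 ± 0.950 FPKM in leukemia and 7.77 ± 1.39 FPKM in wild type, and the final reductase Dhcr7 12.2 ± 2.39 FPKM in leukemia and 11.6 ± 2.66 FPKM in wild type. Their 95% intervals reached from -0.70 to 0.61 for Lss, from -0.34 to 0.29 for Nsdhl and from -0.35 to 0.48 for Dhcr7. The ketoreductase Hsd17b7 and the sterol reductase Tm7sf2 differed by -0.01 and 0.25. Mvd, Idi1 and Fdps are consecutive steps, while Fdft1 and Lss, on either side of Sqle, were not called.

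Summed over the 18 enzymes of both sections of the route, the RNA came to 187, 224, 224, 240 and 294 FPKM in leukemias 1 to 5, against 151, 166 and 177 FPKM in wild-type 1 to 3. Every leukemia lay above every wild-type pool. The Ebf1+/- pools, at 217, 201 and 199 FPKM, also lay above wild type and fell within the range of the leukemias. These sums are given with no test. The leukemias differed among themselves: leukemia 1 had the lowest value for 9 of the 18 enzymes and leukemia 5 the highest for 9. Leukemia 1 also had the fewest reads, 8506680, and the part of depth in its low values was not tested.

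**Figure D3:**
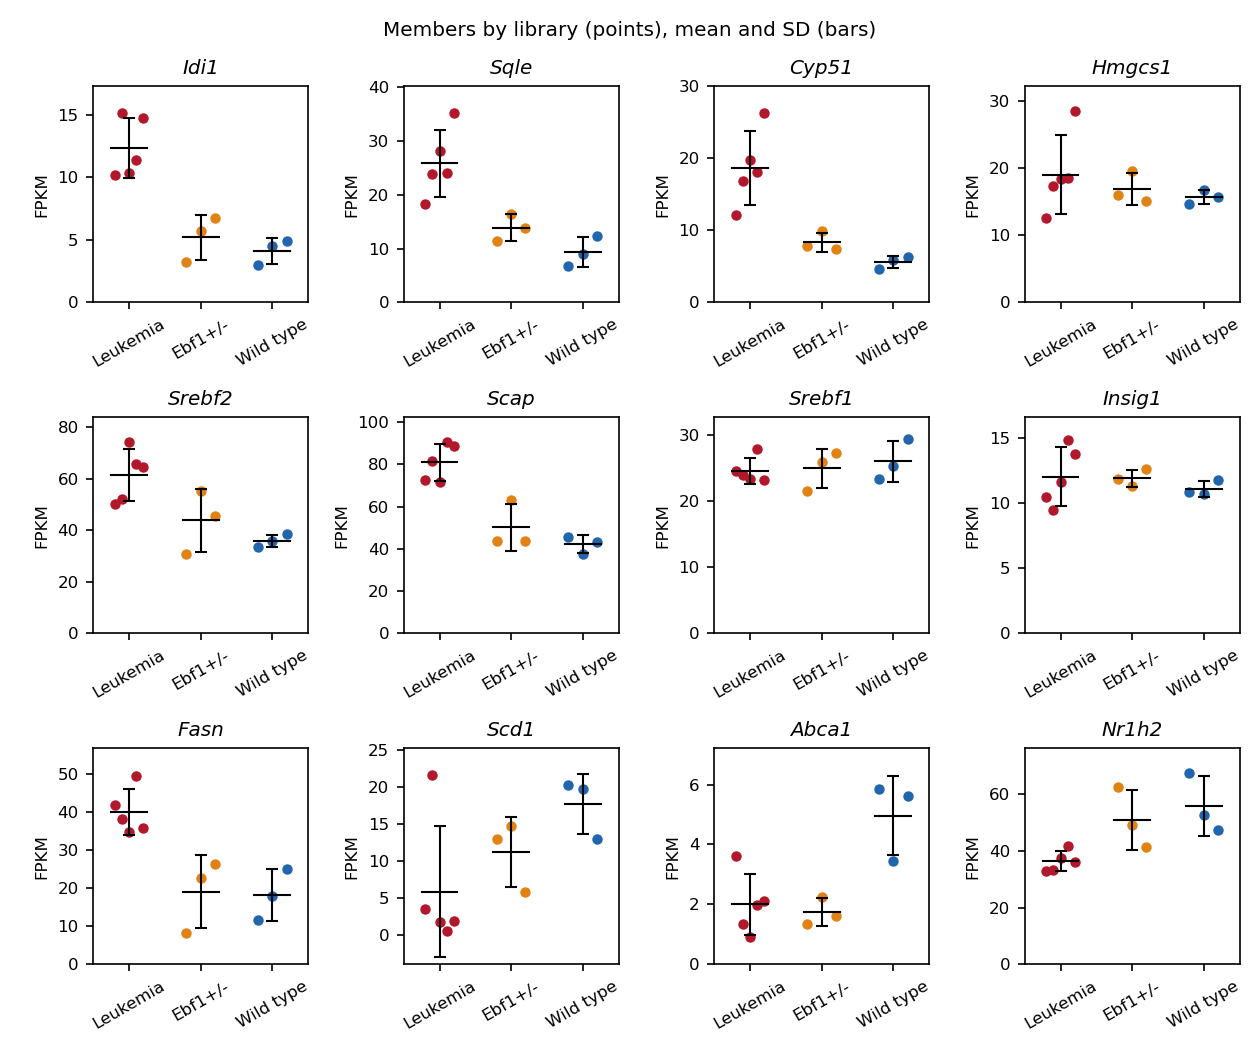
FPKM of 12 of the genes by library (points) with the group mean and SD (bars); leukemia, Ebf1+/- and wild type from left to right, with a vertical scale of its own for each gene. Idi1, Sqle, Cyp51, Scap and Fasn have every leukemia above every marrow pool, Srebf1 and Insig1 have groups that overlap, and Scd1 has leukemia 2 at 21.7 FPKM and the other 4 leukemias at 3.48 FPKM or less.

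Among the SREBP factors and their control, 2 of 5 genes were called higher (40.0%, against 20.7% of all genes tested) and 0 lower (against 24.1%). Srebf2 encodes the SREBP that acts mainly on cholesterol genes (chromosome 15, 82147181 to 82205379, plus strand). It had 50.2, 52.2, 74.2, 65.8 and 64.5 FPKM in leukemias 1 to 5, against 33.7, 35.8 and 38.5 FPKM in wild-type 1 to 3. Every leukemia lay above wild type, and the difference was 0.74 (SE 0.14, adjusted p = 0.00256). The Ebf1+/- pools had 30.9, 55.2 and 45.5 FPKM, and pool 2 overlapped the leukemias. Scap (chromosome 9, 110333288 to 110384950, plus strand) had 72.6, 81.6, 71.7, 90.5 and 88.9 FPKM in leukemia, 43.6, 62.9 and 43.9 FPKM in Ebf1+/- and 45.6, 37.4 and 43.4 FPKM in wild type. All leukemias lay above all marrow pools. The difference from wild type was 0.93 (SE 0.11, adjusted p = 0.000322), the smallest adjusted p of the 36 genes.

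The other SREBP gene and both Insig genes were not called. Srebf1, whose products act mainly on fatty acid genes, had 24.5, 23.9, 23.3, 27.9 and 23.1 FPKM in leukemia, 21.5, 26.0 and 27.3 FPKM in Ebf1+/- and 23.4, 25.2 and 29.3 FPKM in wild type. Its groups overlapped, with a difference of -0.08 and a 95% interval from -0.31 to 0.16. Insig1 had 10.4, 9.46, 11.6, 14.8 and 13.8 FPKM in leukemia, 11.9, 11.3 and 12.6 FPKM in Ebf1+/- and 10.8, 10.7 and 11.8 FPKM in wild type. Its difference from wild type was 0.09 (95% interval -0.24 to 0.42). Insig2 had 5.53, 4.5, 4.75, 2.75 and 6.17 FPKM in leukemia, 6.81, 4.92 and 5.30 FPKM in Ebf1+/- and 5.95, 5.65 and 5.07 FPKM in wild type, with leukemia 4 the lowest of the 11. The difference was -0.22 (95% interval -0.68 to 0.23). A difference of 1 on this scale, in either direction, lies outside all 3 of these intervals.

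In fatty acid synthesis, 2 of 3 genes were called higher (66.7%, against 20.7% of all genes tested). Fasn, the fatty acid synthase (chromosome 11, 120805846 to 120824547, minus strand), had 41.9, 38.1, 34.6, 49.5 and 35.9 FPKM in leukemias 1 to 5, against 11.6, 18.0 and 25.1 FPKM in wild-type 1 to 3. In Ebf1+/- it had 8.24, 22.7 and 26.4 FPKM. No leukemia overlapped a marrow pool, and the difference from wild type was 1.14 (SE 0.22, adjusted p = 0.00296). Acaca, the acetyl-CoA carboxylase that makes its substrate, averaged 13.4 ± 1.94 FPKM in leukemia and 7.58 ± 2.18 FPKM in wild type (0.77, SE 0.18, adjusted p = 0.00820), also with no overlap. Fitted with all 3 groups at once, Acaca missed the threshold (adjusted p = 0.0591), the highest of its 18 alternatives. Acly, which makes acetyl-CoA from exported citrate and feeds both routes, was level at 96.0 ± 5.69 FPKM in leukemia and 101 ± 3.92 FPKM in wild type, a difference of -0.07 (95% interval -0.26 to 0.11).

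The desaturases and elongases divided. Of 7 genes, 3 were called higher (42.9%, against 20.7% of all genes tested), 1 lower (14.3%, against 24.1%) and 3 were not called. Fads2, a desaturase of polyunsaturated fatty acids, averaged 52.2 ± 7.06 FPKM in leukemia and 30.2 ± 13.2 FPKM in wild type (0.86, SE 0.26, adjusted p = 0.0261). Fads1, the desaturase that acts after it, averaged 23.3 ± 5.02 FPKM in leukemia and 15.1 ± 3.76 FPKM in wild type (0.59, SE 0.20, adjusted p = 0.0395). Elovl5, which elongates the products of Fads2, averaged 53.0 ± 13.4 FPKM in leukemia and 34.9 ± 1.32 FPKM in wild type (0.55, SE 0.18, adjusted p = 0.0348), without overlap. These 3 calls were close to the threshold. Without wild-type 1 the Fads2 difference was 0.47, and the call held. Fads2 missed the threshold without leukemia 4 (adjusted p = 0.0511) and with all groups in 1 fit (adjusted p = 0.0771), Fads1 without leukemia 3, 4 or 5 or wild-type 1 or 2 (adjusted p = 0.0648 to 0.155), and Elovl5 without leukemia 4 or 5 or any wild-type pool (adjusted p = 0.0546 to 0.0929). Elovl6, which elongates palmitate, averaged 24.0 ± 5.33 FPKM in leukemia and 16.7 ± 3.08 FPKM in wild type (0.48, adjusted p = 0.0775). Leukemia 5 was its lowest leukemia at 15.6 FPKM, and without it the difference was 0.62 (adjusted p = 0.0107, the lowest over 18 alternatives, with 0.25 the highest). Elovl1, which elongates saturated chains, differed by -0.04. Without the filter on low values, Fads1 and Elovl5 missed the threshold (adjusted p = 0.0591 and 0.0505), as did Fdps, Msmo1 and Scd1 (0.0646, 0.0556 and 0.067).

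Scd1 and Scd2 make monounsaturated fatty acids by the same reaction, and only Scd1 was called. Scd1 (chromosome 19, 44394455 to 44407879, minus strand) had 3.48, 21.7, 1.73, 0.448 and 1.89 FPKM in leukemias 1 to 5, against 20.3, 19.8 and 13.0 FPKM in wild-type 1 to 3. The Ebf1+/- pools had 13.0, 14.7 and 5.80 FPKM. In 4 leukemias Scd1 lay below every marrow pool, while leukemia 2 lay above all 6. The difference from wild type was -2.16 (SE 0.74, adjusted p = 0.0398). It was -2.78 (adjusted p = 0.00084) without leukemia 2, and the call was lost without any other single library of either group (adjusted p = 0.0619 to 0.112). Scd2 averaged 49.7 ± 12.4 FPKM in leukemia and 43.7 ± 0.865 FPKM in wild type and was not called (0.14, adjusted p = 0.562). Scd1 RNA thus made up 5.52%, 25.5%, 4.31%, 0.862% and 5.05% of the Scd1 and Scd2 RNA in leukemias 1 to 5, against 32.2%, 30.8% and 22.9% in wild-type 1 to 3. The Ebf1+/- pools held 28.5%, 25.1% and 12.9%. Scd1 and Scd2 are close paralogs, and how the authors assigned reads that match both is not given in the sources used here.

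Of the 3 tested genes of the LXR arm, 2 were called lower (66.7%, against 24.1% of all genes tested) and 0 higher (against 20.7%). Nr1h2, which encodes LXR beta (chromosome 7, 44549616 to 44553951, minus strand), had 33.0, 33.4, 37.5, 41.6 and 36.1 FPKM in leukemias 1 to 5, against 67.6, 52.6 and 47.4 FPKM in wild-type 1 to 3. No leukemia reached the wild-type range, and the difference was -0.60 (SE 0.13, adjusted p = 0.00554). In Ebf1+/- it had 62.5, 49.0 and 41.3 FPKM. Abca1, the exporter of cholesterol to lipid-poor apolipoproteins (chromosome 4, 53030787 to 53159895, minus strand), had 3.62, 1.35, 0.919, 1.98 and 2.11 FPKM in leukemias 1 to 5, against 5.84, 3.44 and 5.62 FPKM in wild-type 1 to 3. Leukemia 1 lay just above wild-type 2, and the other 4 lay below wild type. The difference was -1.03 (SE 0.28, adjusted p = 0.0170), and the call was lost without wild-type 1 or 3 (adjusted p = 0.0675 and 0.0613).

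Abcg1, which hands cholesterol to high-density lipoprotein, spread widely, at 17.3, 11.6, 7.77, 15.4 and 3.86 FPKM in leukemia, 9.88, 9.92 and 6.01 FPKM in Ebf1+/- and 15.6, 12 and 10.6 FPKM in wild type. It was not called (-0.30, adjusted p = 0.555). Nr1h3, which encodes LXR alpha, had 0.693, 0.487, 0.396, 0.570 and 0.720 FPKM in leukemia, 0.192, 0.175 and 0.117 FPKM in Ebf1+/- and 0.310, 0.248 and 0.136 FPKM in wild type. The leukemias lay above both marrow groups, at levels too low for the test.

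Between Ebf1+/- and wild-type progenitors, no gene of the 36 was called in either direction. The share of all 11167 genes tested that was called was also 0, both higher and lower, although 863 had an unadjusted p under 0.05. Of the 36 genes, 3 had such a p by limma, Abca1, Fdps and Cyp51 (8.3%, against 7.7% of all genes tested), and voom on recovered reads also gave 3. With the replicate number as a block, 8 of the 36 had such a p (22.2%, against 16.1% of all genes tested), and with array weights 10 (27.8%, against 9.2%), again with 0 genes of the 36 called. Every Ebf1+/- pool lay above every wild-type pool for 5 genes, Fdps, Cyp51, Msmo1, Sc5d and Mvk (13.9%, against 7.53% of all genes tested). Every Ebf1+/- pool lay below for 2, Abca1 and Abcg1 (5.56%, against 8.1%). The median difference was 0.19, against 0.03 over all genes, and 26 of 36 were above 0, against 54.0% of all genes tested. Without wild-type 1 the median of the 36 genes was 0.08. Of the 18 cholesterol enzymes, 17 had a difference above 0, Hsd17b7 being the exception. Fdps had 37.4, 29.0 and 39.0 FPKM in Ebf1+/- pools 1 to 3, against 19.2, 24.1 and 25.6 FPKM in wild-type 1 to 3 (0.59, SE 0.18, unadjusted p = 0.0142, adjusted p = 0.507). Abca1 had 1.34, 2.25 and 1.62 FPKM in Ebf1+/-, against 5.84, 3.44 and 5.62 FPKM in wild type (-1.11, SE 0.25, unadjusted p = 0.00282, adjusted p = 0.388). Both sets of values lay apart, and neither passed the adjusted test.

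Several fatty acid genes differed between the marrow pools of each genotype. Fasn, Acaca and Acly were lowest in pool 1 of both groups, and both of these pools came from 3 mice, the others from 6 or 7. Acaca had 3.43, 9.98 and 10.4 FPKM in Ebf1+/- pools 1 to 3, against 5.27, 7.87 and 9.61 FPKM in wild-type pools 1 to 3. Fads2 had 16.0, 43.3 and 47.8 FPKM in Ebf1+/-, against 16.0, 32.7 and 42.0 FPKM in wild type. Acly had 54.8, 101 and 89.3 FPKM in Ebf1+/-, against 96.5, 103 and 103 FPKM in wild type. Pool 1 was thus the lowest of each group for all of these genes. Pool 1 was also where the granulocyte markers were highest, with sums of 10716 FPKM in Ebf1+/- pool 1, against 2734 and 4028 FPKM in pools 2 and 3, and of 3433 FPKM in wild-type pool 1, against 1820 and 630 FPKM. The sums of the progenitor B cell markers were also highest there, at 7320 FPKM in Ebf1+/- pool 1, against 5235 and 2359 FPKM in pools 2 and 3, and at 5966 FPKM in wild-type pool 1, against 4670 and 3416 FPKM. Monocyte markers were highest there too, at 1760 FPKM in Ebf1+/- pool 1 and 567 FPKM in wild-type pool 1, while platelet markers were lowest, at 143 FPKM in Ebf1+/- pool 1 and 77.0 FPKM in wild-type pool 1. The part of these cells and of pool size in the low values was not tested. Over all 37 genes, wild-type 1 held the lowest wild-type value for 21 and the highest for 12. In Ebf1+/- the low values were less tied to pool 1, which was lowest for 15 genes and highest for 12. Ebf1+/- 3 was lowest for 14. Of the 7 desaturases and elongases, 6 were lowest in wild-type 1 but 3 in Ebf1+/- 1, and Scd1 was highest in wild-type 1, at 20.3 FPKM. The share of all genes that were lowest in pool 1 was not counted.

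**Figure D4:**
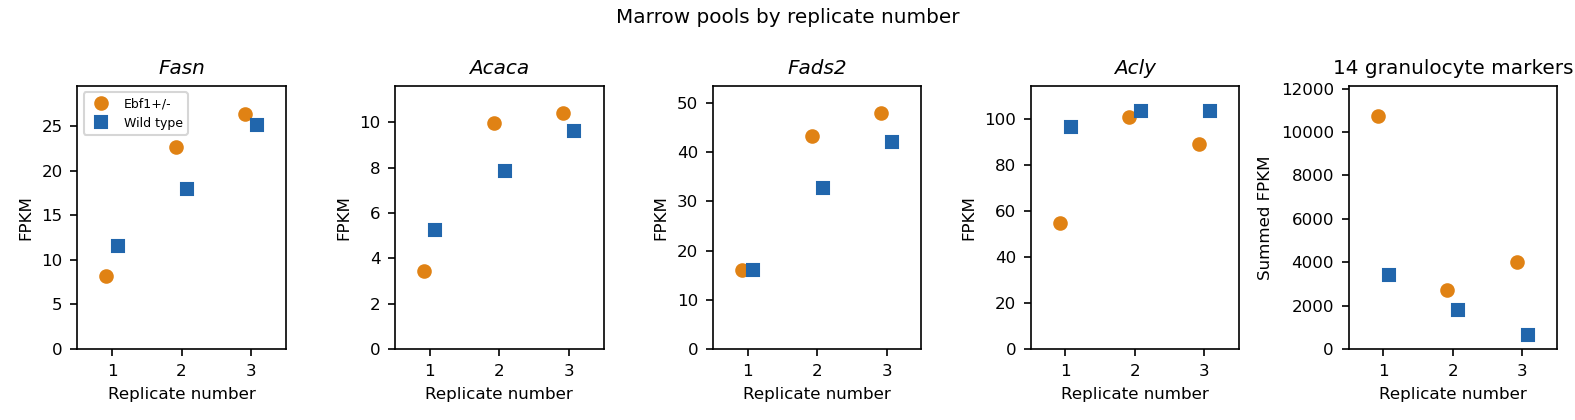
FPKM of Fasn, Acaca, Fads2 and Acly, and the summed FPKM of 14 granulocyte markers, in the Ebf1+/- (circles) and wild-type (squares) marrow pools by replicate number. Pool 1 is the lowest of each group for Fasn, Acaca and Fads2 and the highest of each group for the granulocyte markers.

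Against Ebf1+/- progenitors, fewer genes of the set were called. Limma called 5 of the 36 higher, Idi1, Cyp51, Scap, Sqle and Fasn (13.9%, against 9.31% of the 11161 genes tested), and 0 lower (12.3% of all genes tested). An unadjusted p under 0.05 was reached by 10 of the 36 genes (27.8%, against 35.9% of all genes tested). In 6, those 5 and Acaca, every leukemia lay above every Ebf1+/- pool (16.7%, against 12.9% of all genes tested), and in 0 every leukemia lay below (16.2% of all genes tested). The median difference was 0.103, against -0.025 over all genes. It was 0.221 without Ebf1+/- 2, 0.176 without leukemia 3 and 0.055 without Ebf1+/- 3. With quantile scaling the calls over all genes turned from 1039 higher and 1370 lower (43.1% higher) to 1568 higher and 1120 lower (58.3% higher), and the median difference over all genes moved from -0.025 to 0.079. The median of the 36 genes was then 0.325, and their counts were again 5 higher and 0 lower. This comparison shares its leukemias with the comparison against wild type, so the lists of genes are not independent.

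The difference from Ebf1+/- was 1.13 for Idi1 (SE 0.22, adjusted p = 0.00820), 1.04 for Cyp51 (SE 0.22, adjusted p = 0.0106) and 0.70 for Scap (SE 0.15, adjusted p = 0.0131). Each held when any single library was left out. Sqle differed by 0.84 (SE 0.20, adjusted p = 0.0193), and its call was lost without Ebf1+/- 1 or 3 (adjusted p = 0.0523 and 0.0525). Fasn differed by 1.16 (SE 0.32, adjusted p = 0.0311), and its call was lost without leukemia 1, 2, 3 or 4 (adjusted p = 0.0621, 0.0593, 0.0524 and 0.0634). Without Ebf1+/- 1, its lowest marrow pool, the difference was 0.68, and the call held. Srebf2 differed by 0.50 and was not called (adjusted p = 0.109). Fdps and Abca1, which differed from wild type in the leukemias, had small differences from Ebf1+/-, of -0.11 (95% interval -0.52 to 0.30) and 0.08 (95% interval -0.58 to 0.74). Scd1 was not called (-1.48, adjusted p = 0.198), but was called lower without leukemia 2 (-2.10, adjusted p = 0.0157, with 0.374 the highest over 18 alternatives). Nr1h2 lay just outside the threshold (-0.46, adjusted p = 0.0544) and passed it without Ebf1+/- 3 (-0.60, adjusted p = 0.0307) and in 3 other settings, with 0.17 the highest over 18 alternatives. Elovl1 was called lower only without Ebf1+/- 2 (-0.54, adjusted p = 0.0326, with 0.362 the highest over 18 alternatives).

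Other genes of lipid metabolism, from lists chosen with earlier results of these data known, place the 37 genes in their setting. Counts are over the genes tested. For leukemia against wild type, 4 genes were called higher and 2 lower of 15 other sterol and isoprenoid genes. A mixed list of 19 genes had 0 higher and 8 lower. It held, among others, genes of SREBP processing and of the turnover of sterol synthesis enzymes, and transcription factors such as NF-Y subunits. Of 20 genes of sterol uptake, transport and storage, 3 were called higher and 5 lower, and of 11 LXR targets and partners, 1 higher and 4 lower. Of 30 other fatty acid and lipid synthesis genes, 8 were called higher and 9 lower, and of 22 fatty acid oxidation genes, 5 higher and 3 lower. The shares called higher were 26.7%, 0%, 15.0%, 9.09%, 26.7% and 22.7% in the order given, against 20.7% of all genes tested. The median differences of these 6 lists were 0.22, -0.31, -0.19, -0.33, 0.16 and 0.04 in this order, against -0.04 over all genes. The mixed list and that of LXR targets and partners had the larger shares called lower, 42.1% and 36.4%, against 24.1% of all genes tested.

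The genes with the smallest p in each list are named. Slc25a1, the mitochondrial carrier that exports citrate for Acly (chromosome 16, 17925223 to 17928219, minus strand), had 233, 162, 161, 282 and 163 FPKM in leukemias 1 to 5, against 32.1, 45.0 and 47.2 FPKM in wild-type 1 to 3. In Ebf1+/- it had 62.8, 72.4 and 55.1 FPKM. It was called higher in leukemia against both wild type (2.22, SE 0.22, adjusted p = 0.000110) and Ebf1+/- (1.61, SE 0.21, adjusted p = 0.00125). Gpam, which starts glycerolipid synthesis in mitochondria (chromosome 19, 55067268 to 55127238, minus strand), had 7.06, 6.34, 7.31, 7.53 and 7.37 FPKM in leukemia, 8.91, 40.4 and 24.3 FPKM in Ebf1+/- and 81.8, 74.8 and 74.4 FPKM in wild type. It was lower in leukemia than in wild type by -3.26 (SE 0.09, adjusted p = 9.05e-08), and the Ebf1+/- pools lay between and spread 4.54-fold. Acsl4, which activates long-chain fatty acids, averaged 8.20 ± 1.65 FPKM in leukemia, 16.5 ± 2.08 FPKM in Ebf1+/- and 27.1 ± 0.458 FPKM in wild type. It was called lower in leukemia against wild type (-1.63, SE 0.14, adjusted p = 6.84e-05) and against Ebf1+/- (-0.93, SE 0.17, adjusted p = 0.00547).

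Of the LXR list, Mylip, an LXR target that encodes a ubiquitin ligase, averaged 11.9 ± 2.03 FPKM in leukemia and 54.4 ± 11.4 FPKM in wild type (-2.10, SE 0.17, adjusted p = 4.77e-05). The coactivator Ncoa1 was lower (-1.28, adjusted p = 0.00143) and the LXR partner Rxra higher (1.03, adjusted p = 0.00562). Of the list of uptake, transport and storage, the sterol transporter Abcg4 (-2.04, adjusted p = 0.00132) and the oxysterol-binding protein Osbp (-0.56, adjusted p = 0.000989) were lower. Every leukemia had less than 0.1 FPKM of Abcg4, against 1.39 to 6.47 FPKM in wild type.

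Of the mixed list with genes of SREBP processing, the NF-Y subunit Nfyb was lower in leukemia (24.2 ± 1.34 FPKM, against 40.9 ± 4.13 FPKM in wild type, -0.73, adjusted p = 0.000398). Sec24d, a subunit of the vesicle coat that leaves the endoplasmic reticulum, was also lower (-2.0, adjusted p = 0.00486). Of the other sterol and isoprenoid genes, Coq2 of ubiquinone synthesis was higher (0.49, adjusted p = 0.00407), and the sterol reductase Lbr was lower (-0.61, adjusted p = 0.0068). In fatty acid oxidation, the 3 genes of smallest p, Echs1, Slc25a20 and Hadh, were higher in leukemia (0.82, 0.63 and 0.47, adjusted p = 0.000537, 0.00395 and 0.00937). That list as a whole had 22.7% of its 22 genes called higher, against 20.7% of all genes tested, 3 called lower and a median difference of 0.04. Between Ebf1+/- and wild type, 0 of all 11167 genes tested were called, and so none of the genes named from these lists.

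**Figure D5:**
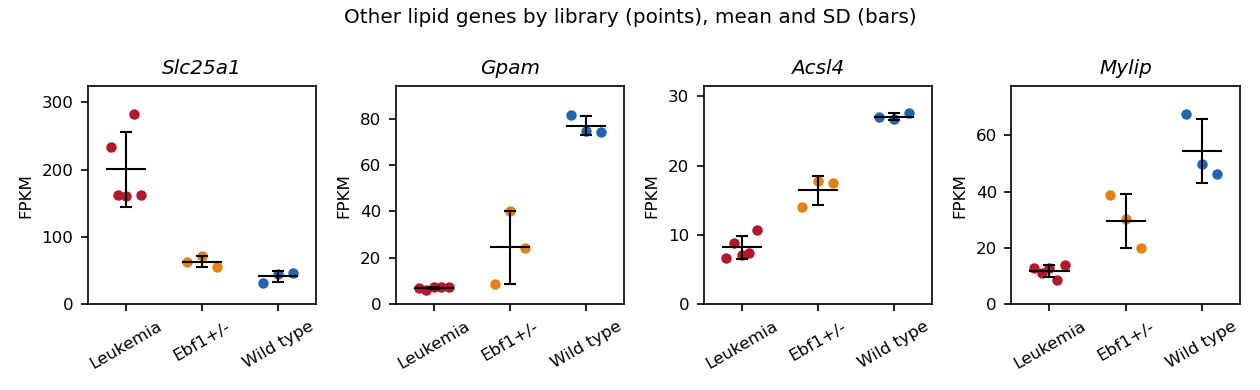
FPKM of 4 genes outside the 37 by library (points) with the group mean and SD (bars); leukemia, Ebf1+/- and wild type from left to right, each gene on its own vertical scale. Slc25a1 has its highest group mean in leukemia and Gpam, Acsl4 and Mylip in wild type, with the Ebf1+/- mean between the other 2 for all 4.

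The 37 genes varied from mouse to mouse in leukemia. The highest leukemia exceeded the lowest by a median of 1.59-fold over the 37 genes. That median was 1.43-fold over the 10520 genes that averaged at least 1 FPKM in leukemia. The ratio passed 2-fold in 10 of the 37, a count not made over all genes. In Ebf1+/- the median was 1.43-fold, against 1.58-fold over 11300 genes, and in wild type 1.41-fold, against 1.31-fold over 10928 genes. The leukemias were 5 single mice and each marrow group 3 pools of several mice, so the ratios of different groups are not comparable. In wild type, too, the 37 genes varied more than all genes. Acly was the steadiest of the 37 in leukemia, with a ratio of 1.15, and Scd1 the least steady, with 48.5. Pmvk, with a ratio of 1.03, was the steadiest in wild type. Of the 37 genes, 13 share exon bases with another annotated gene in GENCODE vM21, among them Idi1, Cyp51, Scap and Fdps of the genes called higher. Cyp51 shares 166 of its 4415 exon bases with Akap9 and Scap 985 of 7443 with 5830462I19Rik, both on the opposite strand. Fdps shares 1124 of its 4208 exon bases with Gm43738 on the same strand, where strand does not separate reads. Whether the authors' counting used strand is not given in the sources used here. The lengths behind the FPKM values were shorter than these exon totals, at 1461 bases for Fdps, 4288 for Scap and 4353 for Cyp51. How many of the shared bases lay in the counted parts was not tested. Where they did, reads of these genes and their partners may not have been told apart.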

How the data were processed

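RNA levels of 11 libraries were read from 1 deposited table of FPKM values, which the authors made before deposit, per the labels and the table's header. The tool named for the leukemia and wild-type libraries is BWA 0.7.12, and those named for the Ebf1+/- libraries are TopHat2 and Cufflinks, with mouse build mm10/GRCm38, per the submitters' processing notes. Neither the counting tool nor its annotation or use of strand is given in the sources used here. Of 23071 identifiers, 27 are date numbers and name no gene. Whole reads were recovered from the FPKM steps for 17379 of the 17380 genes above 0 (99.99% of values whole within 0.001 read), which gave the library totals. Each comparison used the libraries of its 2 groups, without a block. Limma 3.58.1 (R 4.3.3) was run on log2(FPKM + 1) for all genes averaging 1 FPKM or more, with a mean-variance trend in the empirical Bayes step. P-values were two-sided, adjusted by Benjamini and Hochberg over all genes tested, and called under 0.05. These steps were run on simulated reads with the same dispersion for every gene and group and few changed genes. That simulation did not cover groups of unequal spread, or as many changed genes as were called here.

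The members and the gene lists were chosen with earlier results of these data known. Members called in leukemia against wild type with at least a 2-fold change and a mean of at least 5 FPKM in 1 group, and the regulators and LXR genes, are given by library. From each other list up to 3 genes of smallest p are named, except that some genes are not reported here. Same-numbered Ebf1+/- and wild-type pools deviated together (correlations of 0.65, 0.32 and 0.69), although no source states a shared batch. The reported fit has no block, and a fit with the number as a block also called 0 genes. Alternatives changed the pseudocount, the filter, the scaling, the libraries in the fit, the weights, the empirical Bayes step and the test, added a replicate block, or left out 1 library. Python 3.11.15, pandas 2.3.3, NumPy 2.4.6 and Matplotlib 3.10.9 were used for tables, promoter searches and figures.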

Additional observations from a re-analysis of the deposited data

Results flagged for a closer look

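Among the 37 genes, 2 had a leukemia library far from the other 4 by Dixon's test, in which the gap to the nearest library is divided by the range of the group and set against a critical value of 0.71 for 5 libraries. Chance flags about 1 in 20 such groups. Tm7sf2, a sterol reductase, was highest in leukemia 1 at 3.34 FPKM, with 2.43 FPKM in the next library (gap over range 0.782). Scd1, a fatty acid desaturase, was highest in leukemia 2 at 21.7 FPKM, with 3.48 FPKM in the next library (0.857).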

How the results depend on the processing

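No called gene of the 37 changed sign under any alternative, and 8 of the 17 calls for leukemia against wild type held in all 18 (Mvd, Idi1, Sqle, Cyp51, Srebf2, Scap, Fasn and Nr1h2). For leukemia against Ebf1+/-, 1 of 5 did, Idi1. Genes that were not called changed sign under at least 1 alternative in 9 cases for leukemia against wild type, 11 for Ebf1+/- against wild type and 11 for leukemia against Ebf1+/-. Ebf1+/- against wild type gave 0 called members in each direction under all 16 alternatives. Leaving out 1 library gave 9 to 14 members called higher and 1 to 3 lower for leukemia against wild type, with 9 higher without wild-type 2 and 1 lower without wild-type 1 or 3, and 4 to 5 higher and 0 to 1 lower for leukemia against Ebf1+/-. In that comparison 1 member, Nr1h2, was called lower under median-ratio scaling, with all groups in 1 fit and with array weights, whose iteration did not fully converge. A replicate block gave 9 higher members for leukemia against wild type and 1 for leukemia against Ebf1+/-, where same-numbered libraries did not deviate together (correlations of -0.13 to 0.07 and -0.10 to 0.06), and over all genes 350 higher and 594 lower for leukemia against Ebf1+/-. For Ebf1+/- against wild type the block changed no call. With 1 library left out, leukemia against Ebf1+/- gave 690 to 1224 genes higher over all genes, and without a filter 2148 lower. Ebf1+/- against wild type gave at most 11 higher and 12 lower over all genes, with all groups in 1 fit. The cause of these changes was not tested. The filter of 1 FPKM left out Nr1h3, whose highest library, leukemia 5, had 0.720 FPKM.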
